A study of Mus musculus with 6 samples.

Results

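The 38 mitosis genes described here, of 23038 genes listed in each library, encode the cyclins, kinases, checkpoint proteins, kinetochore proteins and spindle proteins that carry a cell from G2 phase through mitosis. They were taken by symbol, and every symbol matched 1 gene. The members were chosen by name, as a list drawn up with the fold changes and library levels of these data already seen, so their values for the contrast between the groups are a description and not independent evidence. The cells were NSC-34, a mouse hybrid line of neuroblastoma and spinal cord motor neuron origin that divides in culture. Poly-A mRNA was sequenced from 3 libraries that received control siRNA (siNC) and 3 that received siRNA against Qk (siQk), the gene of the Quaking proteins that bind RNA. RNA was collected 72 hours after transfection. All 6 libraries share the line and, by their labels, growth in DMEM with 10% FCS. The methods also describe retinoic acid differentiation of this line. That protocol used less serum, and its assays came sooner after transfection, than in the sequenced libraries. No label says whether the sequenced cells went through it. The siQk group used 3 different siRNAs, and the labels do not tie a siRNA to a library, so siRNA and library cannot be told apart within that group.

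Entry into mitosis depends on Cdk1 bound to a cyclin partner, and the Cdc25 phosphatases remove the phosphates that hold Cdk1 inactive. Kinetochores then join chromosomes to spindle microtubules, while the spindle assembly checkpoint keeps the anaphase-promoting complex inactive until all chromosomes are attached. That complex, a ubiquitin ligase, marks securin and the B-type cyclins for destruction, separase cuts cohesin, and the central spindle and contractile ring divide the cell. Many genes of these steps are transcribed together late in the cycle, from promoters in which a cell cycle genes homology region (CHR) binds the DREAM and MuvB complexes and CCAAT boxes bind NF-Y.

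Promoter sequence was used to see what the genes share that the choice of the list did not state. RefSeq promoter windows, from 250 bases before to 50 after an annotated transcription start in GRCm38.p6, were found for 33 of the 38 genes (35 windows). Ccna2, Aurkb, Tpx2, Incenp and Cdc25c were not matched. The letters TTTGAA or TTCGAA, the CHR core, were searched on both strands, and so were CCAAT, the E2F letters TTCCCGC and the forkhead letters TGTTTAC. CHR letters stood in the windows of 25 of the 33 genes, and in 77.1% of the 35 windows, beside 13.4% of 12910 windows of all genes tested for expression. CCAAT stood in 80.0% of the windows against 38.02%, and 57.1% against 14.3% held it at least 2 times. CHR and CCAAT letters occurred together in 71.4% of the windows against 5.55%. The E2F letters were in 0 of the 35 windows and in 8.25% of all windows, and the forkhead letters were in 5.71% against 2.45%. A match describes the letters and is not a binding site, and a window without a match says nothing of the factor.

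The 9 sequences that follow show the arrangement in genes whose expression is described below. Each runs from 110 bases before to 30 bases into the transcript on the gene's own strand, and capitals mark CHR letters (TTTGAA or TTCGAA, or TTCAAA for a match on the other strand) and CCAAT letters (ATTGG for a match on the other strand). In Cdk1, Ccnb2, Cdc20, Ttk, Cenpf and Prc1 a CHR match lies near the start, with 1 or more CCAAT matches upstream of it. Ccnb1 has CCAAT letters and no CHR match, and the windows of Mad2l1 and Pttg1 hold neither. The Pttg1 window lies at a RefSeq start 1482 bases inside the gene's GENCODE 5′ end, so it does not cover that end and is no contrast to the others.
Cdk1, chr10:69352883-69353022, minus strand: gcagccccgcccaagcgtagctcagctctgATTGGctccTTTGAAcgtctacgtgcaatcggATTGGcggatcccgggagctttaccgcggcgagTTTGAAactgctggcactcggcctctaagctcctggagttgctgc
Ccnb2, chr9:70421525-70421664, minus strand: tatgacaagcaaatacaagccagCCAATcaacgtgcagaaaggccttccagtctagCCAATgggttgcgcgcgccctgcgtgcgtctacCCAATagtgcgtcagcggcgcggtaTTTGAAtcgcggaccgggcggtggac
Cdc20, chr4:118437314-118437453, minus strand: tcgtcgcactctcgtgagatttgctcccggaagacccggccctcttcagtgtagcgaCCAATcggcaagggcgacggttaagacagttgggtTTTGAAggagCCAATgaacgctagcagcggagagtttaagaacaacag
Ttk, chr9:83834579-83834718, plus strand: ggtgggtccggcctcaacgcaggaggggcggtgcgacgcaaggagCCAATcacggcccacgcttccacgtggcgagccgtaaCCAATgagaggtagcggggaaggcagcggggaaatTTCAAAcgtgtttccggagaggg
Cenpf, chr1:189688057-189688196, minus strand: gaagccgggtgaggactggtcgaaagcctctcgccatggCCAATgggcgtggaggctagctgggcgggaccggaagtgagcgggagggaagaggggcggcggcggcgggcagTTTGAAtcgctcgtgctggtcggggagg
Prc1, chr7:80294341-80294480, plus strand: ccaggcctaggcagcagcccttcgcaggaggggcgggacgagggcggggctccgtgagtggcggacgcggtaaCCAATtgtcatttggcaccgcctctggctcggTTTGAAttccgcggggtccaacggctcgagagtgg
Ccnb1, chr13:100786457-100786596, minus strand: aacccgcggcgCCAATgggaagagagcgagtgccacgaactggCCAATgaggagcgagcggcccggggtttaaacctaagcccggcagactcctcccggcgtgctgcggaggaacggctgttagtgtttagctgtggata
Mad2l1, chr6:66535111-66535250, plus strand: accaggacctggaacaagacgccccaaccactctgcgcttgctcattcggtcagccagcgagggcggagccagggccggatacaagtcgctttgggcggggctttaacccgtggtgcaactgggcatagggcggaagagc
Pttg1, chr11:43425952-43426091, minus strand: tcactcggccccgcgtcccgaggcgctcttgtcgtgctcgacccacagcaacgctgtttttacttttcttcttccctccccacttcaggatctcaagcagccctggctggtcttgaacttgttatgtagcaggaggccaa

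Ect2 and Prc1 each have 2 windows that overlap and share their matches. Counting only the first window of each gene, 25 of 35 CHR matches began within 50 bases of the start on either side. Positions were not counted over all genes tested, so this count has no background beside it. In Cdk1, which carries a pair of CHR matches, they began at positions −71 and −15 counted from the start, with CCAAT letters at −80 and −48. Ccnb2 had CCAAT letters at −87, −54 and −21 and its nearest CHR match at 5. The neighbouring CCAAT letters were 31 to 34 bases apart in 9 of the 20 windows with more than 1, or 45.0%, beside 13.3% of 1846 such windows of all genes tested; this spacing range was chosen after the positions were seen. Windows of Birc5, Nuf2 and Nusap1 also held neither set of letters.

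**Figure D1:**
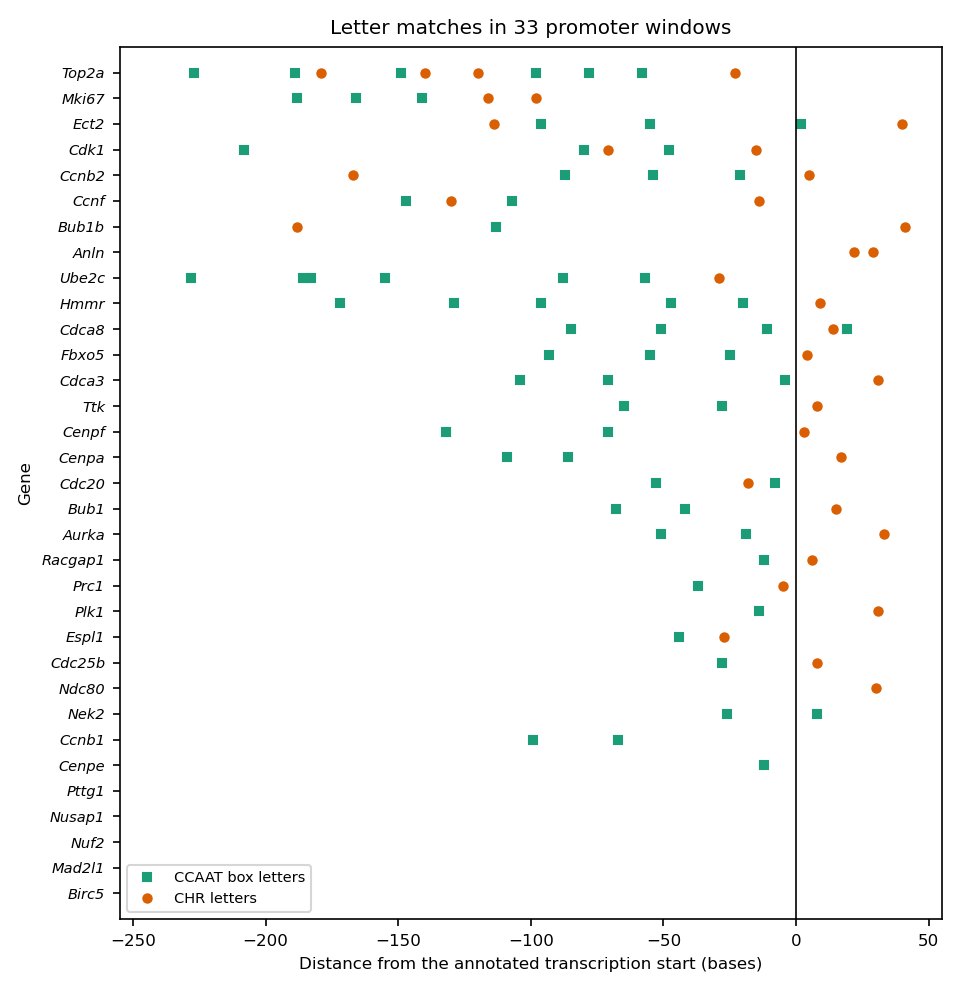
Positions of CHR letters (circles) and CCAAT letters (squares), on either strand, in the first RefSeq window of each of 33 mitosis genes; the horizontal axis is the distance in bases from the annotated transcription start. Most CHR letters begin within 50 bases of the start, CCAAT letters mostly lie upstream of them, and 5 genes have no match.

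Windows of 70 further mitosis genes held CHR letters in 56.2% of 80 windows, those of DNA replication genes in 16.2% of 37, and those of G1 cyclins and Cdk inhibitors in 5.26% of 19. CCAAT stood in 63.75%, 59.5% and 52.6% of these windows, all above the 38.02% of all genes tested. The E2F letters were in 16.2%, 43.2% and 15.8%, and the forkhead letters in 5%, 5.41% and 10.5%. Regulators of mitotic transcription had CHR letters in 28.6% of 28 windows, CCAAT in 46.4%, the E2F letters in 10.7% and the forkhead letters in 0%.

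Depth was 43000503 to 53565950 counts per library. The siRNA target was first checked as a guide to the labels. Qk was at 9.67, 8.18 and 14.9 RPKM (counts scaled to exon length and library total) in siNC and at 1.39, 1.71 and 1.105 RPKM in siQk. It fell by 3.00 on the log2 scale (SE 0.34, adjusted p = 0.0149, edgeR's quasi-likelihood test with Benjamini-Hochberg adjustment over 12665 genes), and the groups did not overlap. On the first 2 principal components of all genes, the libraries that stood farthest out were siQk replicate 2 and siNC replicate 3, at distances of 50.5 and 43.7 beside 11.1 to 25.7 for the other 4 libraries. Markers of microglia and fibroblasts were near 0, with summed levels of 0.0602 to 0.222 and 0.0180 to 0.217 RPKM in siNC and 0.0626 to 0.143 and 0.0240 to 0.153 RPKM in siQk, and Cx3cr1 and Lum were listed at 0 throughout. The summed levels of the other marker lists in siNC and siQk were 1.53 to 2.21 and 1.94 to 2.52 RPKM for astrocytes, 6.71 to 8.80 and 5.83 to 8.34 RPKM for the oligodendrocyte lineage, and 7.09 to 12.4 and 6.87 to 8.26 RPKM for endothelium. The neuronal markers were mixed: Gap43 was at 95.8 to 150.7 RPKM, while Dcx was listed at 0 and Stmn2 and Rbfox3 reached at most 0.00796 and 0.117 RPKM. By library, the median of the 17 neuronal markers tested, relative to each gene's mean on the log2 scale, was −0.079, 0.18 and −0.16 in siNC and 0.15, −0.053 and 0.089 in siQk. Single markers differed in siQk replicate 2, where Tubb3 (186 RPKM) was lower than in all but siNC replicate 3 and Snap25 (71.3 RPKM) was at its highest. Of the markers of motor neurons, Chat and Mnx1 reached at most 0.141 and 0.0944 RPKM, Slc18a3 was at 1.56 to 2.29 RPKM and Isl1 at 4.75 to 9.63 RPKM. The groups did not overlap for 1 of the 17 markers higher in siQk, Isl1 (log2 fold change 0.82, SE 0.097), and 1 lower, Mapt (−0.49, SE 0.16), beside 5.35% and 3.49% of all genes tested, so both shares are near the background. Neither passed the adjusted threshold in edgeR's quasi-likelihood test (unadjusted p = 0.00101 and 0.0175).

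All 38 mitosis genes passed the filter on low expression and were abundant. Their mean levels ran from 12.5 RPKM (Ccnf, the cyclin F subunit of a ubiquitin ligase) to 189.6 RPKM (Top2a, which untangles DNA before chromosomes part), with a median of 36.5 beside 10.6 RPKM over all genes tested. The median mitosis gene stood at percentile 81.1 of expression, and the lowest at 54.5. Counts per gene and library ran from 1507 to 63668, so that counting error was small beside the spread between libraries. In bulk RNA, a change in the share of dividing cells and a change in the RNA of these genes per cell cannot be told apart.

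Knockdown of Qk gave no call among the mitosis genes. Of the 38, 0 passed p under 0.01 with an adjusted p under 0.1 in edgeR's quasi-likelihood test, and the smallest adjusted p was 0.9996; 0.0079% of all genes tested were called, which was Qk itself. At an unadjusted p under 0.05 the count was 2 (Prc1 and Pttg1), beside 2.89% of all genes in either direction and 1.2% higher in siQk. DESeq2's Wald test and edgeR's exact test also called 0 of them, and called 0.15% and 0.0395% of all genes. Missing the threshold does not show that levels were the same: the median SE of a log2 fold change was 0.19 (0.052 to 0.41).

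Most of the fitted log2 fold changes were small and positive. They were above 0 for 33 of the 38 genes, beside 50.8% of all genes tested, with a median of 0.13 beside 0.0034 and a range from −0.17 (Ccnb2) to 0.55 (Prc1). The 5 below 0 were Ccnb2, Ccna2, Tpx2, Ndc80 and Racgap1. Levels in the groups did not overlap for 3 genes, Prc1, Pttg1 and Mad2l1, all higher in siQk, against 5.35% of genes tested in that direction. In the other direction the count was 0, against 3.49%. Many of these genes shifted together from library to library, so these counts are not counts of independent events. Leaving out siQk replicate 2 gave a median of 0.045 with 13 genes below 0, and leaving out siNC replicate 1 gave 0.070 with 14 below 0. Dropping siNC replicate 3 gave 0.22 with 5 below 0, and dropping it together with siQk replicate 2 gave 0.091 with 12 below 0.

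**Figure D2:**
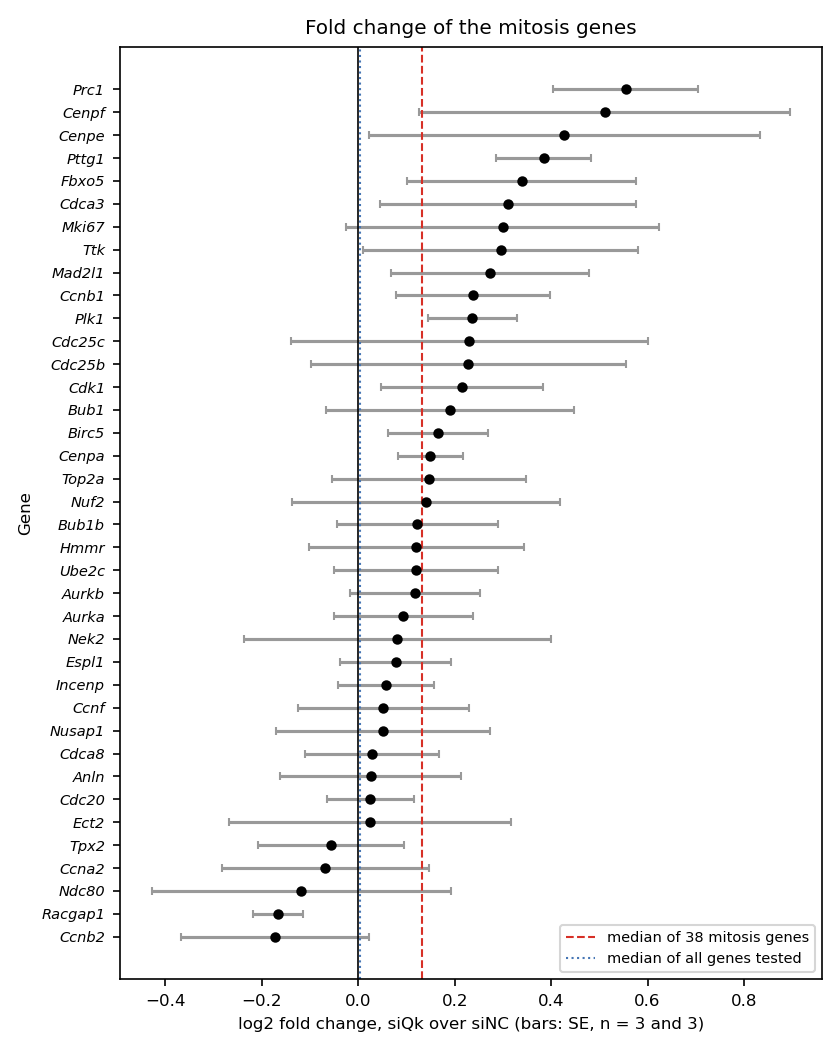
Fitted log2 fold change of each of 38 mitosis genes, siQk over siNC, with its SE (3 libraries per group); dashed and dotted lines mark the median of the mitosis genes (0.13) and of all genes tested (0.0034). Most points lie right of 0 and many SE bars cross it; Prc1 and Pttg1 lie farthest from 0 for the size of their bars among the genes higher in siQk.

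Most of the spread between libraries followed 2 of them. Relative to each gene's 6-library mean on the log2 CPM scale (CPM, counts scaled to the TMM-adjusted library total), the median mitosis gene lay at −0.27, 0.017 and 0.084 in siNC replicates 1 to 3 and at −0.071, 0.22 and 0.079 in siQk replicates 1 to 3. By this median siNC replicate 1 was the low library and siQk replicate 2 the high one, while the middle 4 libraries of both groups overlapped. Not every gene followed it: siNC replicate 3 was lowest in RPKM for 12 of the 38, beside 30.9% of all genes tested. For the 5 genes of anaphase control the median was −0.26 in siNC replicate 3 and −0.0075 in siNC replicate 1, which was lowest for 0 of them. In RPKM, siNC replicate 1 was lowest for 23 of the 38 genes, beside 20% of all genes tested, and siQk replicate 2 was highest for 24, beside 28.8%. Both held for 15 genes, beside 8.39% of all genes. With TMM-scaled CPM, which adjusts the library totals for composition, in place of RPKM the counts were 25 and 25. The summed level of the 38 genes was 1605, 2023 and 1918 RPKM in siNC and 1839, 2307 and 2031 RPKM in siQk, so the groups overlapped. The library that was highest, siQk replicate 2, was also the one farthest from the rest over all genes; its part in the result is given by the medians without it.

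**Figure D3:**
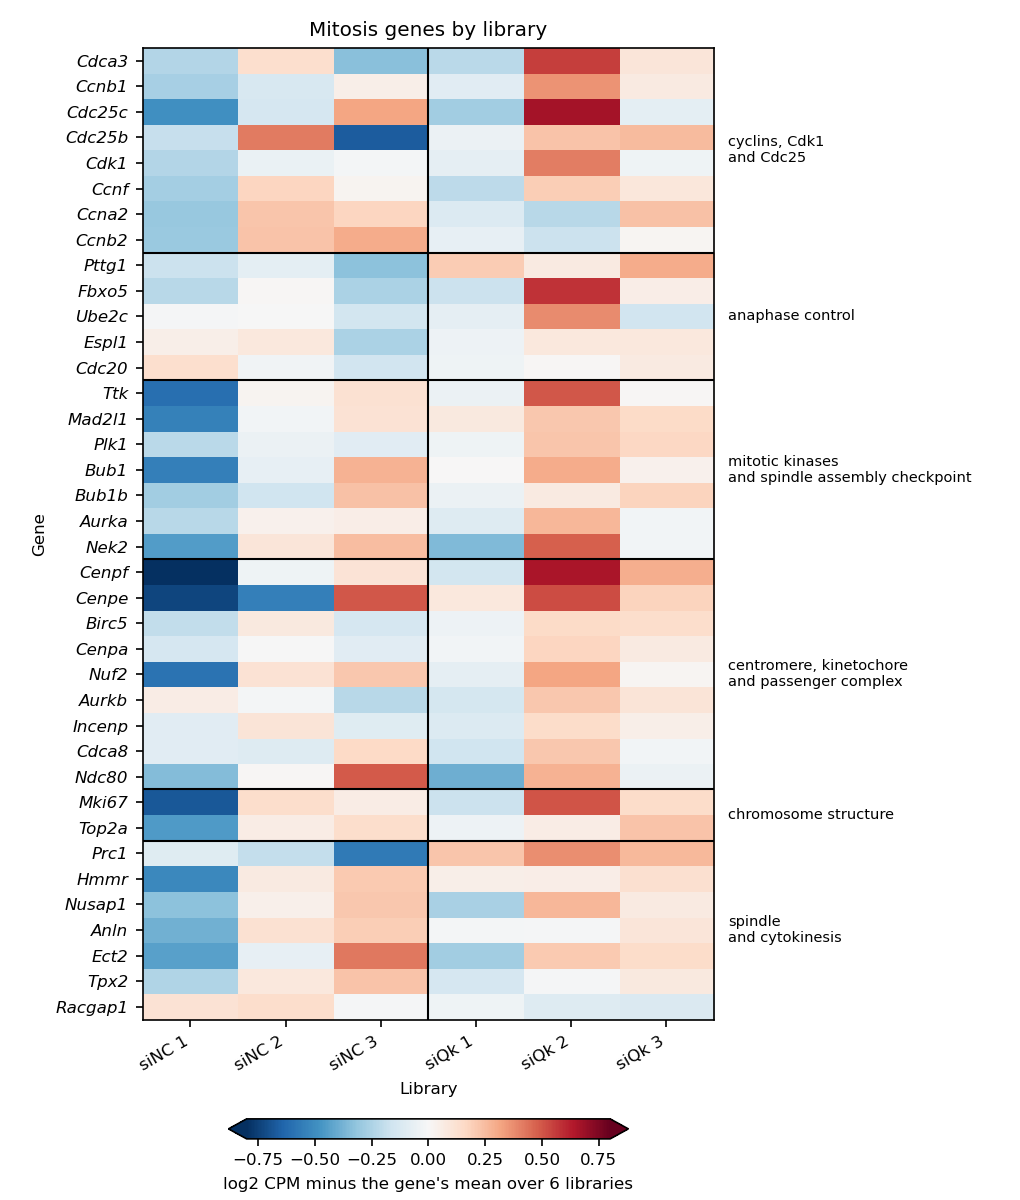
Log2 CPM of each mitosis gene in each library minus the gene's mean over the 6 libraries, by role (colour scale in log2 units; the vertical line parts siNC from siQk). The siNC replicate 1 column is mostly blue (median −0.27) and the siQk replicate 2 column mostly red (median 0.22).

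Among the cyclins and their partners (8 genes), 6 had log2 fold changes above 0 and the median was 0.22. Ccnb1, the main cyclin B of mitotic entry, lies on chromosome 13 (100778739 to 100786486, Entrez gene 268697) of GRCm38. It was at 39.9, 44.8 and 47.3 RPKM in siNC and 45.5, 62.6 and 50.6 RPKM in siQk, with siQk replicate 2 above all others and siQk replicate 1 inside the siNC range (log2 fold change 0.24, SE 0.16). Its relative Ccnb2, a Golgi-associated cyclin B (chromosome 9, 70407689 to 70421554, Entrez gene 12442), ran the other way, with 30.4, 44.5 and 43.8 RPKM in siNC and 35.9, 33.7 and 37.8 RPKM in siQk. There all 3 siQk libraries lay between siNC replicate 1 and the other two siNC libraries (log2 fold change −0.17, SE 0.19). The ratio of Ccnb1 to Ccnb2 in RPKM was 1.31, 1.01 and 1.08 in siNC and 1.27, 1.86 and 1.34 in siQk, and was highest in siQk replicate 2.

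Cdk1, the kinase that both cyclins activate (chromosome 10, 69335146 to 69352912, Entrez gene 12534), was at 96.4, 111 and 107 RPKM in siNC and 109, 153 and 111 RPKM in siQk. Only siQk replicate 2 stood clear of the siNC libraries, and the log2 fold change was 0.22 (SE 0.17). Cdk1 followed Ccnb1 closely: their ratio stayed between 2.19 and 2.48 in all 6 libraries. Ccna2, the cyclin A of S and G2 phase, was at 62.3, 91.2 and 82.9 RPKM in siNC and 71.9, 66.98 and 90.5 RPKM in siQk (log2 fold change −0.068, SE 0.22), and its groups overlapped fully. The Cdc25b and Cdc25c phosphatases were among the most variable: Cdc25b was at 19.1, 29.5 and 13.1 RPKM in siNC and 21.2, 25.8 and 25.9 RPKM in siQk, so that the siNC libraries alone spanned the siQk range. Cdc25c was at 14.8, 19.3 and 24.7 RPKM in siNC and 17.3, 33.6 and 19.7 RPKM in siQk, with siQk replicate 2 the highest. Cdca3, a trigger of Wee1 destruction at mitotic entry, had a log2 fold change of 0.31 (SE 0.27) and Ccnf one of 0.052 (SE 0.18).

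**Figure D4:**
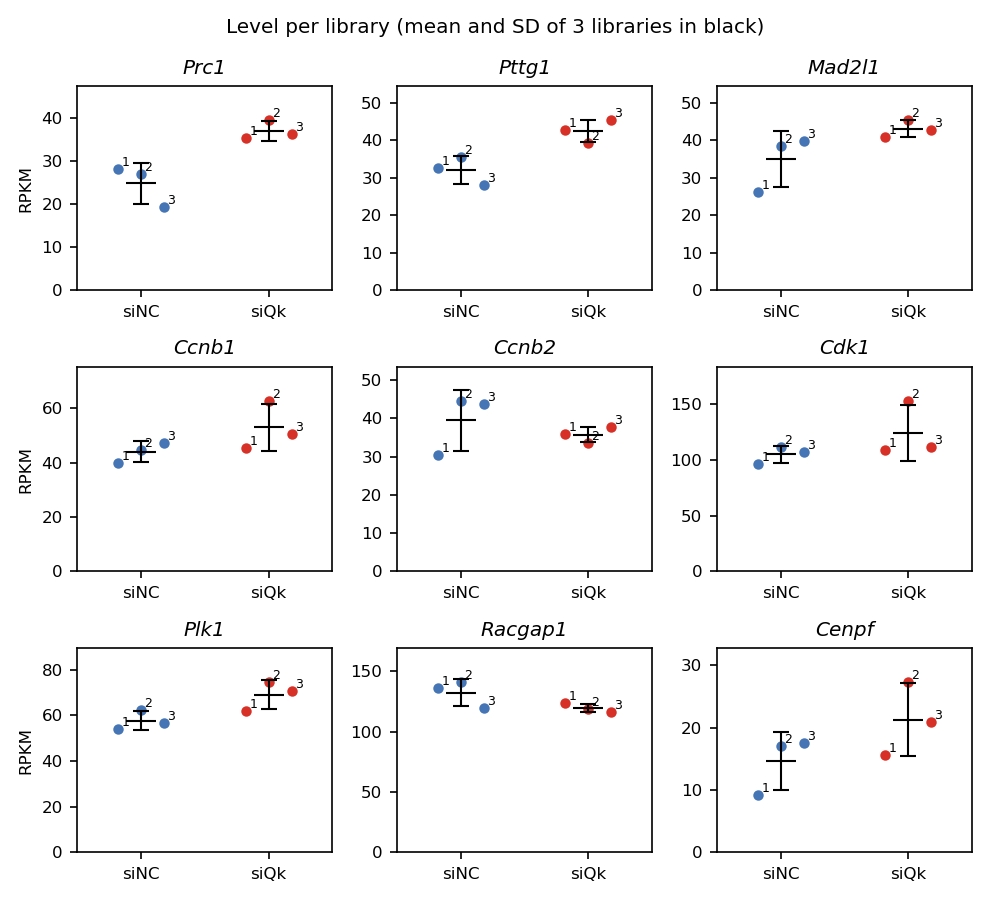
Level in RPKM of 9 mitosis genes in each library (points, numbered by replicate), with the mean and SD of 3 libraries per group; each panel starts at 0. Prc1, Pttg1 and Mad2l1 have all siQk points above all siNC points, Ccnb2 and Racgap1 have lower siQk means, and siQk replicate 2 is the highest point for Cdk1 and Cenpf, with siNC replicate 1 far below the rest for Cenpf.

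In the control of anaphase, Pttg1 gave the second of the 2 unadjusted p-values under 0.05. Pttg1, or securin, holds separase inactive until anaphase and lies on chromosome 11 (43420244 to 43427463, Entrez gene 30939). It was at 32.6, 35.6 and 28.1 RPKM in siNC and 42.8, 39.3 and 45.4 RPKM in siQk. Every siQk library was above every siNC library, by 3.76 RPKM at the closest, and the means were 32.1 ± 3.79 and 42.5 ± 3.05 RPKM (SD, n = 3 each). The log2 fold change was 0.38 (SE 0.10, unadjusted p = 0.0362 and adjusted p = 0.9996 in edgeR's quasi-likelihood test). An exact permutation test of the RPKM values gave a two-sided p of 0.1, the smallest that 3 against 3 libraries allow. The unadjusted p of Pttg1 ran from 0.0269 without siQk replicate 2 to 0.152 without siQk replicate 3, both in edgeR's quasi-likelihood test. Its partner Espl1, the separase itself, was at 27.8, 29.2 and 21.6 RPKM in siNC and 26.4, 29.1 and 28.7 RPKM in siQk (log2 fold change 0.078, SE 0.12). The Pttg1 to Espl1 ratio was 1.17, 1.22 and 1.30 in siNC and 1.62, 1.35 and 1.58 in siQk, every siQk ratio being above every siNC ratio. Pttg1 alone already separated the groups, so the ratio is not separate evidence.

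For the regulators of the anaphase-promoting complex the groups overlapped. Cdc20, its mitotic activator, was at 26.2, 23.8 and 20.5 RPKM in siNC and 23.4, 24.3 and 25.1 RPKM in siQk, and was the only one of the 38 that was highest in siNC replicate 1 (log2 fold change 0.025, SE 0.089). Ube2c, the E2 enzyme that primes ubiquitin chains for the complex, was at 168, 172 and 146 RPKM in siNC and 162, 223 and 152 RPKM in siQk, with siQk replicate 2 above all the others. Fbxo5, or Emi1, which inhibits the complex before mitosis, had a similar shape, with 26.98, 32.3 and 25.2 RPKM in siNC and 28.1, 47.7 and 32.7 RPKM in siQk (log2 fold change 0.34, SE 0.24). Exons of Ube2c and Cdc20 overlap Tnnc2 and Elovl1 on the opposite strand over 592 and 53 bases, and the library kit does not record strand.

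All 7 genes of the mitotic kinases and the spindle assembly checkpoint had log2 fold changes above 0 (median 0.19), and siNC replicate 1 was the lowest library for each of them. Plk1, the polo kinase of mitotic entry and centrosome maturation (chromosome 7, 122159435 to 122169884, Entrez gene 18817), was at 54.1, 62.1 and 56.6 RPKM in siNC and 61.95, 74.5 and 70.7 RPKM in siQk. Its groups overlapped narrowly, with siQk replicate 1 just under siNC replicate 2 (log2 fold change 0.24, SE 0.092). Aurka, the spindle pole kinase, was at 58.4, 71.3 and 67.8 RPKM in siNC and 63.9, 83.4 and 67.3 RPKM in siQk (log2 fold change 0.094, SE 0.14). Nek2, a centrosome kinase, had one of the widest spreads, with 25.6, 37.97 and 39.5 RPKM in siNC and 27.6, 49.3 and 34.5 RPKM in siQk (log2 fold change 0.081, SE 0.32).

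Mad2l1, the checkpoint protein that binds Cdc20 (chromosome 6, 66535221 to 66541107, Entrez gene 56150), was at 26.3, 38.5 and 39.8 RPKM in siNC and 40.8, 45.3 and 42.8 RPKM in siQk. The siQk libraries were all higher, but siNC replicate 3 came within 1.01 RPKM of siQk replicate 1, and only siNC replicate 1 was far below the rest. Its log2 fold change was 0.27 (SE 0.20, unadjusted p = 0.189 in edgeR's test; exact permutation p = 0.1, the smallest possible) and was 0.10 without siNC replicate 1. The checkpoint kinases Ttk, Bub1 and Bub1b shared that low library. Ttk, or Mps1, was at 19.1, 30.1 and 30.3 RPKM in siNC and 28.4, 41.8 and 29.4 RPKM in siQk, and Bub1 at 21.7, 30.8 and 36.8 RPKM in siNC and 31.99, 39.5 and 32.6 RPKM in siQk. Bub1b, or BubR1, a pseudokinase of the checkpoint complex, was at 26.4, 29.3 and 36.05 RPKM in siNC and 31.3, 34.3 and 36.3 RPKM in siQk. The groups overlapped for all 3 of these genes.

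The centromere, kinetochore and passenger complex genes numbered 9, of which 8 had log2 fold changes above 0 (median 0.14). Cenpf, a large farnesylated protein of the outer kinetochore (chromosome 1, 189640606 to 189688107, Entrez gene 108000), varied most of all 38 genes, 2.94-fold from the lowest library to the highest. It was at 9.28, 16.99 and 17.6 RPKM in siNC and 15.5, 27.3 and 20.9 RPKM in siQk, so siNC replicate 1 was far below and siQk replicate 2 far above the others, and the groups overlapped (log2 fold change 0.51, SE 0.38). Without siNC replicate 1 the Cenpf value was 0.27, and without siQk replicate 2 it was 0.29. Cenpe, the kinesin that moves chromosomes to the spindle equator, was at 11.6, 13.5 and 26.1 RPKM in siNC and 20.6, 28.2 and 21.9 RPKM in siQk. Here siNC replicate 3 stood with the siQk libraries, and the SE of 0.41 was the largest of the 38 beside a log2 fold change of 0.43. The Cenpe value was 0.91 without siNC replicate 3 (unadjusted p = 0.00116, adjusted p = 0.895, edgeR's quasi-likelihood test) and 0.21 without siNC replicate 1. Cenpa, the histone variant that marks centromeres, had a small spread, with 44.8, 49.96 and 44.2 RPKM in siNC and 48.7, 56.2 and 51.9 RPKM in siQk (log2 fold change 0.15, SE 0.068).

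Ndc80 and Nuf2, partners in the complex that grips microtubules, did not keep a fixed ratio. Ndc80 was at 33.8, 44.1 and 57.8 RPKM in siNC and 33.1, 53.05 and 41.8 RPKM in siQk, with log2 fold change −0.12 (SE 0.31). Nuf2 was at 71.8, 119 and 119.8 RPKM in siNC and 103, 137 and 109.6 RPKM in siQk, with log2 fold change 0.14 (SE 0.28). Their ratio ran from 2.07 in siNC replicate 3 to 3.13 in siQk replicate 1. The passenger complex genes varied less: log2 fold changes were 0.12 (SE 0.13) for the kinase Aurkb, 0.057 (SE 0.10) for its scaffold Incenp, 0.17 (SE 0.10) for Birc5, or survivin, and 0.028 (SE 0.14) for Cdca8, or borealin. In RPKM, Incenp was the most abundant of these 4 subunits and Aurkb the least, with means of 40.7 ± 4.45 and 18.97 ± 2.37 (SD, n = 3) in siNC.

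Both genes of chromosome structure were lowest in siNC replicate 1. Top2a was at 137, 199.6 and 198 RPKM in siNC and 184, 198 and 220.2 RPKM in siQk, and apart from siNC replicate 1 its libraries overlapped closely (log2 fold change 0.15, SE 0.20). Mki67, whose protein coats mitotic chromosomes and is the usual marker of dividing cells (chromosome 7, 135689784 to 135716450, Entrez gene 17345), was at 51.3, 92.1 and 81.9 RPKM in siNC and 73.3, 118 and 91.2 RPKM in siQk. It ranged from siNC replicate 1 at the bottom to siQk replicate 2 at the top, with the other 4 libraries mixed between them (log2 fold change 0.30, SE 0.32).

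Prc1 gave the smallest p of the 38. It bundles antiparallel microtubules in the central spindle and lies on chromosome 7 (80294445 to 80316259, Entrez gene 233406). Its levels were 28.1, 26.9 and 19.4 RPKM in siNC and 35.2, 39.4 and 36.1 RPKM in siQk. All siQk libraries were above all siNC libraries, the lowest siQk value being 7.18 RPKM over the highest siNC value, with means of 36.9 ± 2.22 and 24.8 ± 4.69 RPKM (SD, n = 3 each). The log2 fold change was 0.55 (SE 0.15, unadjusted p = 0.00724, adjusted p = 0.9996, edgeR's quasi-likelihood test), and an exact permutation test gave p = 0.1, the smallest possible. It stayed between 0.43 and 0.65 when any 1 library was left out. The exons of Prc1 overlap those of Rccd1 on the other strand over 911 bases, and Rccd1 was at 7.88, 6.91 and 3.61 RPKM in siNC and 8.59, 6.06 and 8.60 RPKM in siQk. Like Prc1, Rccd1 was lowest in siNC replicate 3, as were 30.9% of all genes tested. In siQk replicate 2 Prc1 was at its highest, while Rccd1 was lower than in all but siNC replicate 3. The part of shared reads was not tested. Opposite-strand exon overlaps also touch Ccna2 (510 bases), Plk1 (156), Cdca8 (232), Nusap1 (172), Cdc25b (92), Cdc25c (623) and Nek2 (298).

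The other spindle and cytokinesis genes showed no such separation, and the median log2 fold change of all 7 in this role was 0.026. Racgap1, the GTPase-activating subunit of centralspindlin (chromosome 15, 99620496 to 99651656, Entrez gene 26934), was the steadiest of the 38 genes, with 1.21-fold between its lowest and highest library. It was at 136, 141 and 119.6 RPKM in siNC and 124, 119 and 116 RPKM in siQk, and siNC replicate 3 lay among the siQk libraries (log2 fold change −0.17, SE 0.052). Ect2, the RhoA exchange factor that Racgap1 recruits, was at 30.1, 39.6 and 52.2 RPKM in siNC and 33.8, 47.9 and 45.2 RPKM in siQk (log2 fold change 0.024, SE 0.29). The Racgap1 to Ect2 ratio ran from 2.29 in siNC replicate 3 to 4.52 in siNC replicate 1, a range set within the siNC group.

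Tpx2, the microtubule nucleator that activates Aurka, was at 41.99, 53.6 and 55.6 RPKM in siNC and 45.5, 50.2 and 52.5 RPKM in siQk (log2 fold change −0.057, SE 0.15). The hyaluronan receptor and spindle protein Hmmr was at 23.9, 36.7 and 37.8 RPKM in siNC and 35.6, 36.1 and 37.5 RPKM in siQk, and apart from siNC replicate 1 its 5 libraries were within 2.27 RPKM of each other. The spindle protein Nusap1 had a log2 fold change of 0.051 (SE 0.22) and Anln, or anillin, the scaffold of the contractile ring, one of 0.026 (SE 0.19). Like Hmmr, both were lowest in siNC replicate 1.

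The pathway around the 38 genes was read from further lists in the same fit. Of 89 other genes of mitosis, 86 were tested and 0 were called; 70 had higher fitted values in siQk (median 0.13 on the log2 scale), and siNC replicate 1 was lowest for 53 and siQk replicate 2 highest for 47. Regulators of mitotic transcription (24 tested, 0 called, 16 higher) had a median of 0.066, and G1 cyclins and Cdk inhibitors (17 tested of 19, 0 called, 8 higher) one of −0.013. Genes of DNA replication (40 tested, 0 called) were higher in siQk for 38, with a median of 0.31, 10 at an unadjusted p under 0.05 in edgeR's test (2.89% of all genes in either direction), and 21 higher in siQk without overlap of the groups (5.35% of all genes). The smallest p-values there were for the origin licensing factors Cdc6 (log2 fold change 0.58, SE 0.21) and Mcm3 (0.42, SE 0.13) and the single-strand binding subunit Rpa2 (0.55, SE 0.23), none of which passed the adjusted threshold. By library, the replication median was −0.18, −0.0073 and −0.26 in siNC and 0.056, 0.24 and 0.15 in siQk, so the groups did not overlap. The median of the 38 mitosis genes was low in siNC replicate 1 and at 0.084 in siNC replicate 3, and its groups overlapped. Both medians were highest in siQk replicate 2, at 0.24 and 0.22, as was that of the G1 cyclins and Cdk inhibitors, at 0.21. Neuronal markers (17 tested of 23, 0 called, 9 higher) had a median of 0.054.

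**Figure D5:**
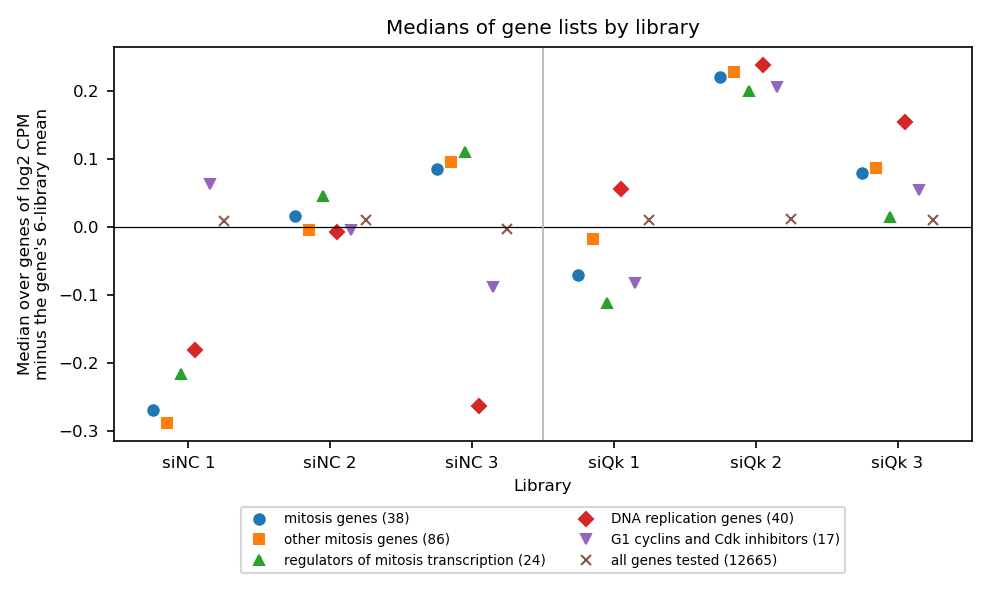
Median, over the genes of each list, of log2 CPM minus the gene's mean over 6 libraries, for each library (number of genes tested in brackets; the vertical line parts siNC from siQk). The mitosis lists, the regulators, the DNA replication genes and the G1 cyclins and Cdk inhibitors are all highest in siQk replicate 2. The mitosis lists and the regulators are lowest in siNC replicate 1, the DNA replication genes are low in siNC replicates 1 and 3, and all genes tested stay near 0.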

How the data were processed

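Poly-A RNA went into TruSeq libraries, which do not record strand, and the authors aligned the paired reads with OLego and counted them by gene with Quantas (versions not given in the sources used here). Each library has its own deposited file of expected counts, summed exon length and RPKM. The RPKM values are scaled by the authors to exon length and the sum of the count column. Expected counts were rounded (21.8% to 22.9% of the 23038 values per library, zeros included, lay more than 1e-06 from a whole number) and scaled by TMM (factors 0.956 to 1.02). Genes with a mean log2 CPM above 0 were tested (12665) for siQk against siNC by edgeR's quasi-likelihood test (version 4.0.16, R 4.3.3) without covariates. A call needed p under 0.01 together with an adjusted p (Benjamini-Hochberg) under 0.1. SE values come from log2 CPM (prior count 2). The code was tested on simulated data. Totals of 43000503 to 53565950 counts set the depth.

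The members and the gene lists were chosen with earlier results of these data known. The text names all 38 members and Qk, and from other lists at most 3 genes with the smallest p. Cell type markers and overlapping genes named as checks were picked after their values were seen. The libraries are described as biological replicates. Gene positions and exon overlaps come from the GENCODE annotation of GRCm38, and promoter windows from RefSeq GRCm38.p6. The methods name the mouse build in a way that mixes builds, and the files hold no coordinates. A planned search of protein letters was not run. Alternatives changed the scaling (DESeq2 1.42.0 size factors or totals), the low-count filter, the test, the replicate block and the libraries kept, and 2 more were added after the data were seen: removal of length and GC trends, and leaving out both libraries farthest from the rest over all genes. The replicate numbers did not pair the libraries.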

Additional observations from a re-analysis of the deposited data

How the results depend on the processing

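In all 15 alternatives, 13 of them planned, 0 of the 38 mitosis genes were called, and the smallest adjusted p of any of them was 0.764 (Prc1, DESeq2's Wald test; up to 0.9999 in the others). The count of all genes called was 1, and it was 19 with DESeq2's Wald test, 5 with edgeR's exact test and 0 to 1 with 1 library left out, since without siNC replicate 1 Qk kept a log2 fold change of −3.09 with an adjusted p of 0.125 in edgeR's test. Qk ran from −3.19 to −2.67 with 1 library left out. The median log2 fold change of the mitosis genes was 0.13, and 0.12 to 0.16 with other scalings, filters and tests, 0.13 with length and GC trends removed and 0.045 to 0.22 with 1 library left out. The number of mitosis genes below 0 was 5 in the scaling, filter and test alternatives, 7 with the trends removed, 12 without both siNC replicate 3 and siQk replicate 2, and 4 to 14 with 1 library left out (14 without siNC replicate 1, 13 without siQk replicate 2, 8 without siQk replicate 3). Of 570 refits of single mitosis genes, 43 changed sign, 30 of them with 1 library left out and none past a threshold, so the sign of 21 of the 38 genes rests on 1 or 2 libraries or on the trend correction. No scaling, filter, test or block changed a sign. With the trends removed, Nusap1 was at −7.7e-06 and Ect2 at −0.0081. With 1 library left out the ranges of the log2 fold changes that changed sign were −0.015 to 0.26 (Top2a), −0.087 to 0.12 (Cdca8), −0.086 to 0.18 (Nusap1), −0.16 to 0.28 (Ect2), −0.061 to 0.16 (Ccnf), −0.18 to 0.25 (Nek2), −0.070 to 0.29 (Nuf2), −0.067 to 0.27 (Hmmr), −0.13 to 0.14 (Anln), −0.22 to 0.019 (Ccna2), −0.041 to 0.11 (Cdc20), −0.18 to 0.049 (Tpx2), −0.022 to 0.13 (Espl1), −0.31 to 0.13 (Ndc80), −0.030 to 0.17 (Aurka), −0.066 to 0.21 (Ube2c), −0.12 to 0.47 (Cdc25c) and −0.0086 to 0.12 (Incenp). Without both siNC replicate 3 and siQk replicate 2, the values that changed sign were 0.090 (Ccna2), −0.038 (Cdc20), −0.040 (Aurkb), 0.043 (Tpx2), −0.11 (Ube2c), −0.012 (Cdca3), −0.016 (Ccnf), −0.036 (Cdc25b), −0.027 (Nek2), −0.044 (Espl1) and −0.040 (Incenp).

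The replicate numbers are shared by the groups, but deviations from the group means correlated across genes by only 0.21, 0.018 and −0.17 for numbers 1 to 3, so they were not read as pairs. With the replicate block, 1 gene and 0 mitosis genes were called, Qk was at −2.95, and the median of the mitosis genes was 0.15 with 5 below 0. Within single mitosis genes the widest leave-one-out range was that of Cenpe (0.21 to 0.91), and Cdc25b ran from 0.0053 to 0.55. The causes of these shifts were not tested. With 3 libraries per group and a median SE of 0.19, small changes of single genes lie below what these data can call. Larger ones also went uncalled, such as a log2 fold change of 1.52, the largest positive one of all genes in the main fit. Counting error is small at 1507 counts or more.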
